A study of Mus musculus with 48 samples.

Results

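The RNAs described here were recovered with HA-tagged Tnrc6a from mouse embryonic stem cells and were recovered less in cells without Ago2, while their level in the cell lysate rose by less than a set limit. They number 123 of the 20171 genes in the count table. For each gene, counts were divided by the library total and scaled to counts per 1000000 (CPM), and log2(CPM + 1) was averaged over the 6 libraries of each group. Recovery is this mean in the immunoprecipitate (IP) less that in the input, the lysate from which it was taken. Members had a recovery in HA-Tnrc6a cells at least 1.5 log2 units above that in untagged cells (the enrichment E). Their recovery in Ago2-/- cells was at least 0.6 below that in HA-Tnrc6a cells (the difference A, at or below -0.6). Their input level rose by less than 0.4 in Ago2-/- cells (DA) and by less than 0.7 in Upf1-/- cells (DU), both against HA-Tnrc6a cells. Of 1366 genes that met the condition on E, 163 also met that on A, the limit on DA then left out 37 and the limit on DU 3. The members were thus chosen by E, A, DA and DU, measured in all inputs and in the untagged, HA-Tnrc6a and Ago2-/- IPs, and these values are given below as a description, with no test.

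The study sequenced RNA from inputs and HA immunoprecipitates of 4 genotypes of mouse embryonic stem cells, 8 groups of 6 libraries and 48 libraries in all. All cells were of the 129S6/SvEvTac background, and carried the reporter that the labels name yGlob [GFP_5xT71BS] and a stably transfected FLAG-Cas9::T2A::Blasticidin construct. Untagged cells had no further change and show what the beads retain without a tag. HA-Tnrc6a cells carried an HA-AVI tag on Tnrc6a, and the Ago2-/- and Upf1-/- cells were tagged cells with that gene also disrupted. The controls thus share the reporter and the Cas9 construct with the knockouts, and the labels do not state how many clones stand behind a genotype. Dishes were grown in triplicate to confluency and equal protein was given to the beads, per the series' design text. The table numbers the columns of a group 1 to 6 and the titles give 2 experiments of 3 replicates. Columns 1 to 3 and columns 4 to 6 are called the first and the second column set here, and their match to the experiments is inferred from order.

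Tnrc6a is the mouse GW182 protein. In animal cells a miRNA loaded on an Argonaute protein pairs, mainly through its seed, with a target mRNA, and the Argonaute binds GW182, which recruits the CCR4-NOT and PAN2-PAN3 deadenylases so that the target is repressed and degraded. Mice have several Argonaute proteins, of which Ago2 can also cleave RNA, and embryonic stem cells are known for a high content of miRNAs of the miR-290 cluster. Published targets of that seed family served below as a reference list. The mature sequences of members of this family are shown because they carry the seed that the reference list is built on. They are from RefSeq (GRCm38.p6), 5′ to 3′ on the plus strand of chromosome 7, with the seed, bases 2 to 8, in capitals.
mmu-miR-291a-3p (chr7:3218968-3218989): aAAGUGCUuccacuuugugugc
mmu-miR-294-3p (chr7:3220691-3220712): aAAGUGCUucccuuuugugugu
mmu-miR-295-3p (chr7:3220815-3220837): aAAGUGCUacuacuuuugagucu
All 3 share the seed AAGUGCU and differ towards the 3′ end. Sites for them in the members' transcripts were not searched here, and the miRNAs themselves were not measured in this comparison.

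Library totals were 15383953 to 19595405 counts for inputs and 11471544 to 18344233 for IPs in the first column set, and 26458831 to 37179105 and 25724085 to 73845953 in the second. Tnrc6a RNA reached 8156 to 28197 CPM in HA-Tnrc6a IPs, 10557 to 48332 in Ago2-/- IPs, 7047 to 20887 in Upf1-/- IPs and 49.1 to 109 in untagged IPs. In the first column set the Ago2-/- IPs therefore gave a larger share of reads to Tnrc6a RNA (36208 to 48332 CPM) than the HA-Tnrc6a IPs (17107 to 28197 CPM). All 8 embryonic stem cell markers were present, with a summed level of 6778 to 8070 CPM over all inputs. The endoderm markers found, 4 of 5, summed to 4.88 to 5.61 CPM in Ago2-/- inputs and 15.5 to 22.9 CPM in HA-Tnrc6a inputs, and Foxa2, Gata6 and Sox17 averaged below 1 CPM in the former. The 4 neural markers summed to 120 to 128 CPM in Ago2-/- and 91.1 to 102 CPM in HA-Tnrc6a inputs. No marker gene was a member, and the part of these differences in the results was not tested. In bulk libraries fewer cells of a type and less RNA per cell cannot be told apart.

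Ago2 is the gene disrupted in the knockout and is itself a member. In HA-Tnrc6a inputs it stood at a lowest, median and highest level of 220, 284 and 360 CPM, and in Ago2-/- inputs at 101, 121 and 149 CPM. Its IP level was 728, 894 and 1110 CPM in HA-Tnrc6a cells and 144, 149 and 162 CPM in Ago2-/- cells. The groups did not overlap in either fraction, so the knockout cells kept a reduced amount of Ago2 RNA, and counts per gene do not show whether protein is made. Ago2 had E of 2.24, A of -1.34 and a DA of -1.21, the lowest DA of all members. Upf1 RNA was not reduced in Upf1-/- inputs (140 to 161 CPM against 83.2 to 111 CPM in HA-Tnrc6a inputs), so that label has no check from the RNA level.

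The 123 members had a median E of 2.15 (1.51 to 5.58) and a median A of -0.75 (-1.65 to -0.61). A median A of this size corresponds to 59.6% of the HA-Tnrc6a recovery being kept in Ago2-/- cells, against 94.9% over the 1243 enriched genes that were not members, whose median A was -0.08. Recovery was not lost entirely. The Ago2-/- recovery of the members was above that of untagged cells by a median of 1.28 (0.27 to 4.82), which is a median of 61.4% of E on the log2 scale. In every Ago2-/- library of 120 members, recovery was above that of every untagged library, where 20.7% of all genes in the table showed this. The HA-Tnrc6a libraries all lay above the untagged libraries in the 123 members, in either column set and over both, where 28.1%, 26.4% and 20.4% of all genes did. The Ago2-/- libraries all lay below the HA-Tnrc6a libraries in 122 members in the first column set (15.5% of all genes), 123 in the second (20.8%) and 111 over both (4.66%). Since the rule used these contrasts, nothing is read from the counts.

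The plot of E against A places the members within the enriched genes. Nearest the limit on A lay Gm26787, Chic1 and Dyrk2, each at -0.61. Just outside lay Ankib1 and Map3k2 at -0.60 and Arhgap1 at -0.59, all of which met the other conditions. The threshold thus cuts a continuous distribution.

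**Figure D1:**
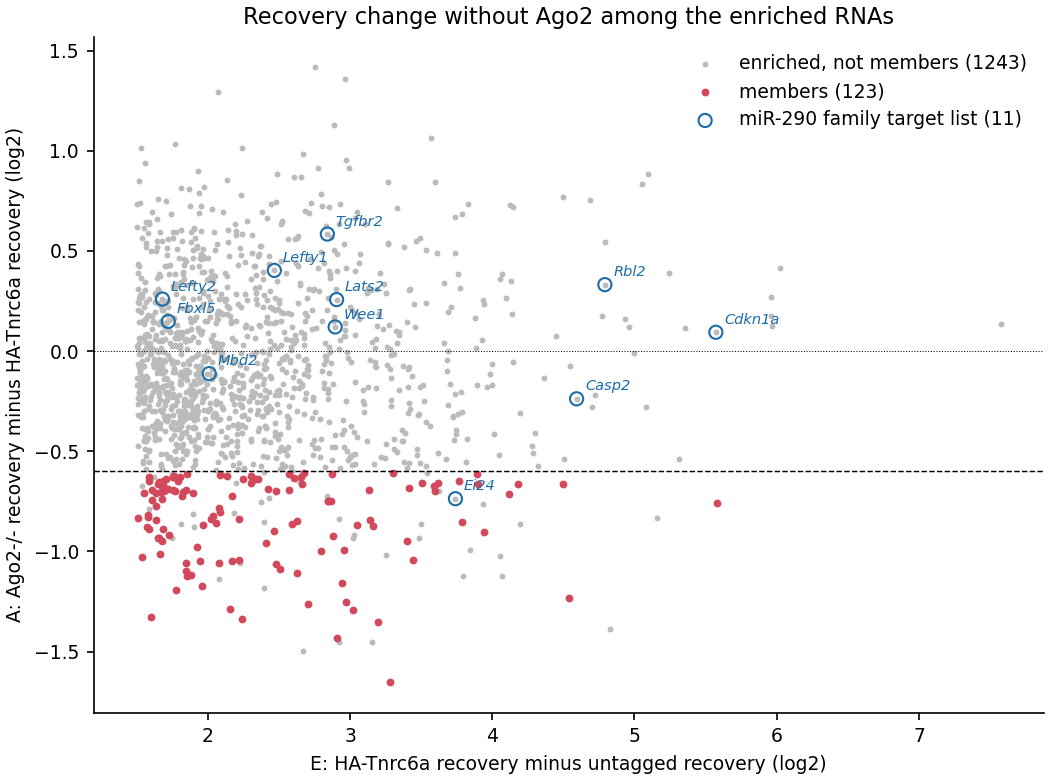
Each point is 1 of the 1366 genes with E of at least 1.5, with E on the horizontal and A on the vertical axis (both log2), members in red and the 11 enriched genes of the miR-290 family target list circled in blue. The dashed line marks A of -0.6, below which grey points were left out by the limits on DA or DU, and 1 circled gene, Ei24 (A of -0.74), lies below it.

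A is the IP difference between Ago2-/- and HA-Tnrc6a cells less DA, so the limits on A and DA hold every member's IP difference below -0.2, and the values of both are given as a description of the choice. The IP difference had a median of -0.65 (-2.55 to -0.21), while DA had a median of 0.19 and was above 0 in 102 members and below 0 in 21. The IP difference made up a median of 79.0% of A (35.0% to 191%). The lowest share belonged to Gm26787, which had the highest DA (0.39), and the highest to Ago2. For comparison, DA had a median of 0.07 over the enriched non-members and -0.02 over all genes. Besides Ago2, the members with inputs lower in Ago2-/- cells by more than 0.4 were 4933427D06Rik (DA of -0.82), Tpbgl (-0.51), Atxn1 (-0.47) and Tmcc3 (-0.42), which are named after their values were seen. All of these but Ago2 had low input levels, from 0.16 to 0.44 CPM per kb of gene length in HA-Tnrc6a cells.

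**Figure D2:**
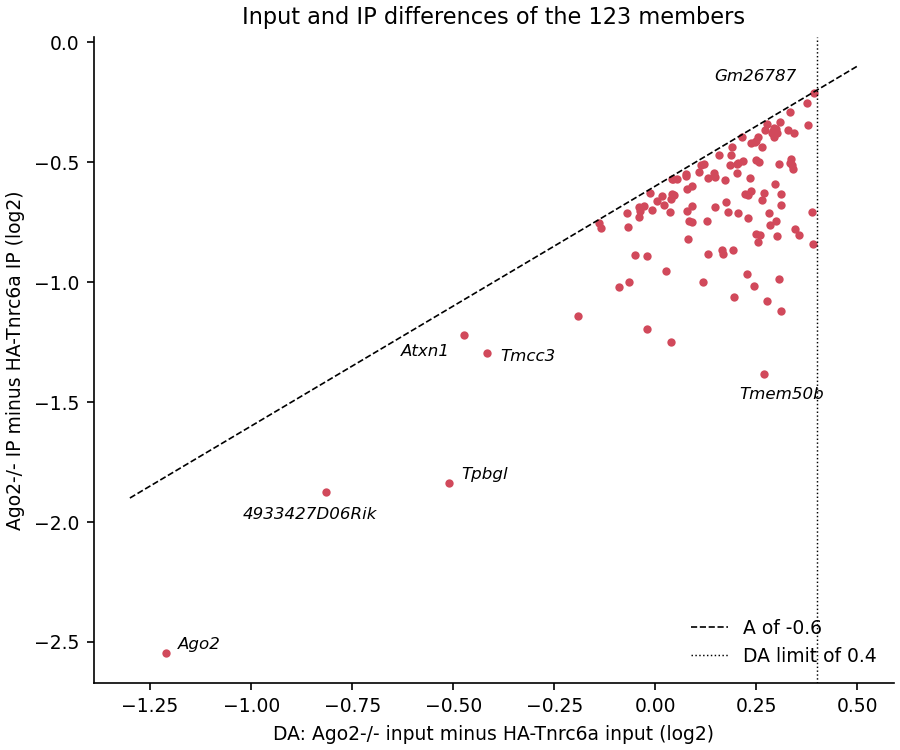
Each of the 123 points is a member, with the Ago2-/- minus HA-Tnrc6a difference in inputs (DA) on the horizontal axis and in IPs on the vertical axis, both in log2(CPM + 1). Most points lie at DA between 0 and 0.4 with IP differences below -0.2, where the rule holds them, and Ago2 stands apart at -1.21 and -2.55.

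Ordered by role, the members closest to RNA silencing were 6 genes with a median A of -1.05 (-1.43 to -0.66). Among the 6 is Ago2 itself, the disrupted gene (A of -1.34), so this median rests in part on the targeted gene. Eri1, an exoribonuclease that trims histone mRNA and ribosomal RNA ends and can degrade small interfering RNA, lies at chr8:35465265-35495533. Its IP level was 384, 464 and 484 CPM (lowest, median and highest) in HA-Tnrc6a cells, 182, 198 and 239 CPM in Ago2-/- cells and 48.1, 59.6 and 64.6 CPM in untagged cells. Its inputs were 66.8 to 72.4 CPM in HA-Tnrc6a and 82.5 to 94.3 CPM in Ago2-/- cells, so the IP groups lay apart in 1 direction and the inputs in the other. A was -1.43. Nanos1, an RNA-binding repressor that works with Pumilio proteins, had IP levels of 42.4, 50.5 and 55.6 CPM in HA-Tnrc6a cells and 18.6, 24.7 and 28.5 CPM in Ago2-/- cells, with inputs of 6.34 to 9.48 and 7.74 to 10.3 CPM. The IP groups did not overlap and the inputs did, and A was -1.26.

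Dcp2, the catalytic decapping enzyme, had IP levels of 456, 675 and 839 CPM in HA-Tnrc6a cells and 266, 360 and 435 CPM in Ago2-/- cells, with inputs of 110 to 184 and 96.2 to 193 CPM. Its level differed between the column sets in both genotypes, so that its IP ranges nearly met over both sets, and A was -0.84. The other genes of this group, named after their values were seen, were Tent5c, a non-canonical poly(A) polymerase (A of -0.69), and Marf1, an RNA-binding regulator of mRNA in the oocyte (A of -0.66).

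Lists of silencing and decay factors are described by their counts. Members are 0.610% of all genes, so lists of this size will mostly hold none or 1, and nothing is read from their number. Of 13 miRNA silencing proteins Ago2 was a member, and the list had a median A of 0.09. Of 13 deadenylase subunits none was a member (median A of -0.04) although Cnot6 (E of 3.37, A of -0.45) and Cnot6l (E of 3.54, A of -0.35) were enriched. Of 10 decapping and decay proteins Dcp2 was the only member (median A of 0.09), and Dcp1a and Dcp1b were enriched with A of 0.02 and 0.21. None of 10 nonsense-mediated decay genes was enriched (median E of -0.49).

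The apoptosis and p53 group held 4 members with a median A of -1.13 (-1.35 to -0.61). Bcl2l11, the pro-apoptotic BH3-only protein Bim, lies at chr2:128126038-128162547 and overlaps Acoxl in RefSeq. Its IP level was 299, 417 and 585 CPM in HA-Tnrc6a cells and 126, 201 and 318 CPM in Ago2-/- cells, with inputs of 23.9 to 35.2 and 26.0 to 46.7 CPM. The first column set was higher in both genotypes, and these ranges overlap over both sets. Within a column set they did not, and A was -1.27 in the first and -1.44 in the second.

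Mdm4, an inhibitor of p53, had IP levels of 1097, 1345 and 1733 CPM in HA-Tnrc6a cells and 499, 597 and 700 CPM in Ago2-/- cells, while its inputs overlapped at 366 to 524 and 372 to 493 CPM. At 437 CPM it had the highest mean HA-Tnrc6a input level of all members, and A was -1.17. Mdm4-ps, a pseudogene by its symbol, is also a member (A of -1.12) at 8.16 to 12.4 CPM in HA-Tnrc6a IPs. Reads may be divided between it and Mdm4, so the values of both are uncertain. The same may hold for the transposase-derived gene Zbed4 (A of -1.06) and for 4930529C04Rik (A of -0.68), a transcribed pseudogene in RefSeq. Sequences of these genes were not compared here. Ccng1, a cyclin induced by p53, had IP levels of 530, 587 and 653 CPM in HA-Tnrc6a and 295, 369 and 424 CPM in Ago2-/- cells, and A was -1.10. The IP groups of Ccng1 did not overlap. The kinase Dyrk2 was at the threshold. Of the 10 genes of the p53 list, Mdm4 and Ccng1 were members. The list had a median A of -0.03, and Cdkn1a, the cell cycle inhibitor p21, was among the most enriched RNAs with an A of 0.09 (E of 5.57).

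Transcription and chromatin genes were the largest class with 29 members and a median A of -0.80 (-1.29 to -0.63). Only members were classed, so the share of each class among all genes is not known. Nothing is read from the size of a class. Wiz, a zinc finger partner of the G9a and GLP histone methyltransferases, had IP levels of 513, 559 and 621 CPM in HA-Tnrc6a cells and 223, 292 and 319 CPM in Ago2-/- cells, and A was -1.29. Cdk19, a kinase of the Mediator complex, had IP levels of 240, 280 and 365 CPM in HA-Tnrc6a and 122, 151 and 232 CPM in Ago2-/- cells from inputs of at most 11.4 and 13.8 CPM. Its IP groups lay apart, and A was -1.23. Zfp768, a zinc finger protein, had the highest E of all members (5.58), with 206 to 299 CPM in HA-Tnrc6a IPs, 147 to 197 CPM in Ago2-/- IPs and 3.47 to 6.46 CPM in HA-Tnrc6a inputs.

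Nacc1, a BTB domain transcriptional repressor, had the highest input level per length, 72.5 CPM per kb in HA-Tnrc6a cells, and an A of -1.05. Foxf2, a forkhead factor, had the lowest, 0.071 CPM per kb, and was at 0 counts in 5 of the 6 Ago2-/- inputs, so its A of -0.95 rests on the IPs (1.48 to 4.29 CPM in HA-Tnrc6a and 0.33 to 0.84 CPM in Ago2-/- cells). Atxn1, a transcriptional co-repressor, had the lowest DU (-0.64). Smad2, a signal transducer of activin and nodal, was the only member among 14 receptors and Smads of the TGF-beta superfamily. Its IP level was 134, 158 and 183 CPM in HA-Tnrc6a and 87.4, 115 and 138 CPM in Ago2-/- cells, ranges that overlap over both column sets, and A was -0.74. That list had a median A of 0.11. Clock and Phc3, a circadian activator and a Polycomb subunit named after their values were seen, had high E (4.18 and 4.50) and both an A of -0.66.

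More of the chromatin and transcription members are named after their values were seen. Cdca7, a zinc finger protein of heterochromatin, had IP levels of 494, 517 and 619 CPM in HA-Tnrc6a cells and 255, 292 and 331 CPM in Ago2-/- cells (A of -1.06). Mxi1, a Max partner that opposes Myc, had 203 to 431 CPM and 137 to 276 CPM (A of -0.99). Msl3, a subunit of the MSL acetyltransferase complex, had 82.1, 97.6 and 112 CPM and 49.5, 54.4 and 77.3 CPM (A of -1.04). The groups lay apart for Cdca7 and Msl3 and overlapped over both column sets for Mxi1. Elk4, an ETS partner of serum response factor, had an E of 4.12 and an A of -0.71, and Nsd3, a histone methyltransferase, an E of 3.14 and an A of -0.84.

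**Figure D3:**
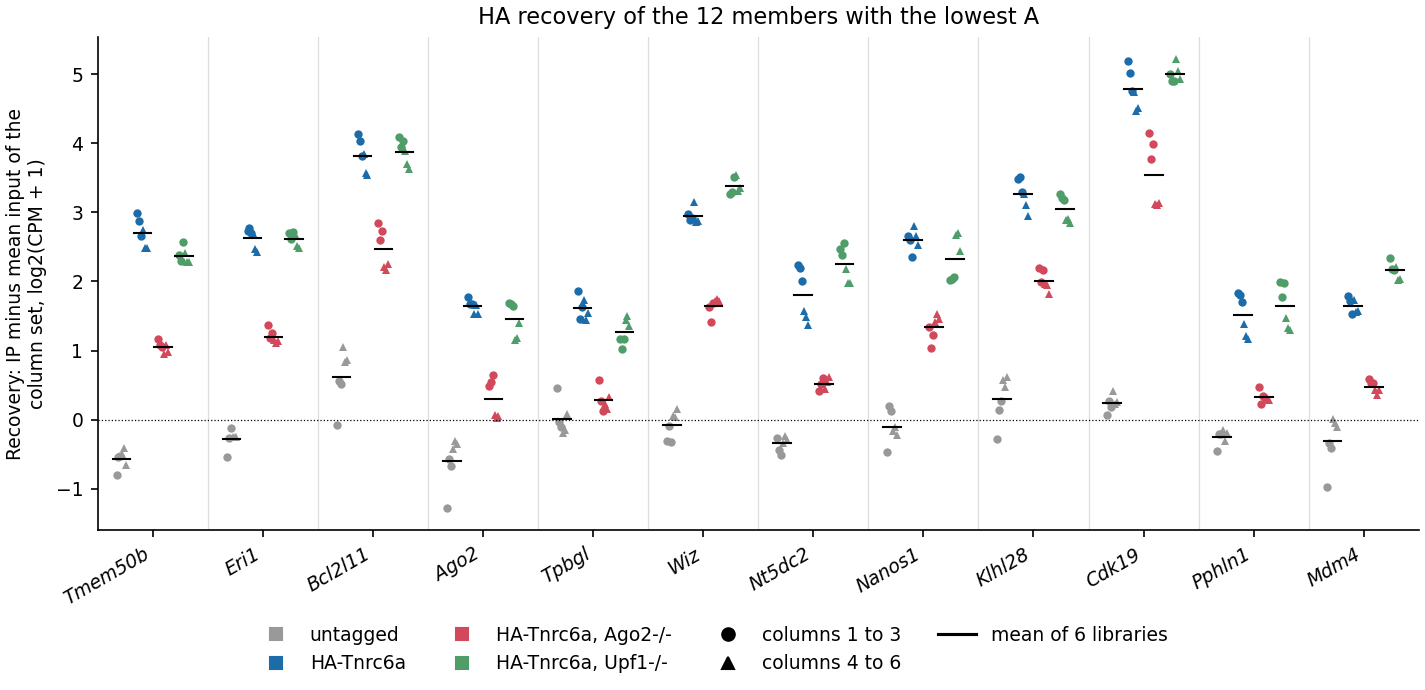
Recovery of the 12 members with the lowest A, as log2(CPM + 1) in each IP less the mean input of its column set, with circles for columns 1 to 3, triangles for columns 4 to 6 and a bar at the mean of 6 libraries. For each gene the Ago2-/- libraries (red) lie below the HA-Tnrc6a libraries (blue), and apart from Tpbgl above the untagged libraries (grey).

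The remaining members with the lowest A belonged to other classes. Tmem50b, a small membrane protein at chr16:91574508-91597680 with no other RefSeq gene over it, had the lowest A of all genes in the table (-1.65). Its IP level was 130, 174 and 240 CPM in HA-Tnrc6a cells, 50.1, 67.8 and 87.2 CPM in Ago2-/- cells and 12.8, 16.1 and 20.7 CPM in untagged cells. Its inputs were 21.5 to 30.3 CPM in HA-Tnrc6a and 24.8 to 40.8 CPM in Ago2-/- cells, overlapping over both column sets. On the log2 scale its recovery was 2.48 to 2.99 in HA-Tnrc6a cells and 0.95 to 1.17 in Ago2-/- cells.

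Klhl28, a kelch protein of the family that serves cullin ubiquitin ligases, had IP levels of 102, 126 and 145 CPM in HA-Tnrc6a cells and 54.7, 60.9 and 63.1 CPM in Ago2-/- cells (A of -1.25). It led a class of 7 ubiquitin ligase adaptors with a median A of -0.67. Pphln1, a subunit of the HUSH silencing complex, had IP levels of 102, 118 and 129 CPM and 49.2, 61.1 and 65.2 CPM (A of -1.19). In both genes the IP groups lay apart.

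Nt5dc2, which overlaps Stab1, had an A of -1.63 in the first column set and -0.94 in the second, with HA-Tnrc6a IPs of 520 to 614 CPM in the first and 231 to 265 CPM in the second. Its A over both was -1.29. Tpbgl was near the detection limit, with 2.699, 3.91 and 6.01 CPM in HA-Tnrc6a IPs, 0.22, 0.35 and 0.66 CPM in Ago2-/- IPs and 0 counts in 1 Ago2-/- input. Its Ago2-/- recovery overlapped that of untagged cells, and A was -1.33.

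Further classes were assigned after the members were known, and the genes named in them were picked after their values were seen. The 9 membrane traffic genes had a median A of -0.82. Vamp3, a vesicle SNARE, had IP levels of 138, 148 and 171 CPM in HA-Tnrc6a cells and 78.4, 92.0 and 92.6 CPM in Ago2-/- cells (A of -1.12). Ubap1, a subunit of the ESCRT-I sorting complex, had IP levels of 316, 383 and 421 CPM and 201, 215 and 262 CPM (A of -0.996). The IP groups of both genes lay apart, and so did their inputs in the other direction, at 49.5 to 61.3 against 61.4 to 78.7 CPM for Vamp3 and 51.1 to 58.2 against 61.4 to 71.8 CPM for Ubap1. Rufy2, a RUN and FYVE domain protein, had the highest DU of all members (0.55) and an A of -1.05.

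Several members encode signalling proteins. Mknk2, a kinase that phosphorylates eIF4E, had IP levels of 307, 353 and 391 CPM in HA-Tnrc6a cells and 202, 213 and 244 CPM in Ago2-/- cells (A of -0.92). Arhgef7, an exchange factor for Rac and Cdc42, had 430, 517 and 602 CPM and 323, 340 and 395 CPM (A of -0.87). Prkaa1, a catalytic subunit of AMP-activated kinase, had 155, 177 and 234 CPM and 108, 145 and 167 CPM (A of -0.69). The groups lay apart for Mknk2 and Arhgef7 and overlapped for Prkaa1. Sos1, the Ras exchange factor, and Shoc2, a scaffold of the Ras pathway, had A of -0.66 and -0.84.

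The 7 metabolic enzymes had a median A of -0.74. Xylb, xylulokinase, had IP levels of 123, 149 and 180 CPM in HA-Tnrc6a cells and 78.6, 83.3 and 90.9 CPM in Ago2-/- cells (A of -1.11), which do not overlap. Pank3, a kinase of coenzyme A synthesis, had E of 3.89 and an A of -0.62. The 6 actin and polarity genes had a median of -0.68 and included Wasl, the activator of Arp2/3 known as N-WASP (-0.70), and the polarity protein Pard6b (-0.64). The 4 glycan genes had a median of -0.70, with the heparan sulfate enzymes Glce (-0.86) and Hs2st1 (-0.71). In all, 80 members fell into 9 classes, and 43 were not classed, among them the palmitoyltransferase Zdhhc9 (-1.16).

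Of the 14 genes of the miR-290 family target list, 11 were enriched and none was a member. Over all 14, enriched or not, the median E was 2.65 and the median A 0.12. The median A of -0.08 over the enriched non-members is of enriched genes only, so the 2 medians are of unlike sets. Since 123 of the 1366 enriched genes are members, a list with 11 enriched genes may well hold none, and nothing is read from that count. Cdkn1a (A of 0.09), Rbl2 (0.33), Lats2 (0.26) and Tgfbr2 (0.58) had E of 5.57, 4.79, 2.91 and 2.84. A was below 0 for Casp2 (-0.24, E of 4.59), Mbd2 (-0.11, E of 2.01) and Ei24. It was above 0 for the other enriched genes of the list. Ei24, a p53-induced protein, had an A of -0.74 and was left out by its DA of 0.48. The member Gm26787 overlaps Ei24, and whether strand was used in counting is not given in the sources used here, so reads of the overlap cannot be told apart. Of 7 Trim71 targets, 6 were enriched and none was a member (median A of 0.15), and of 11 Hippo genes 4 were enriched and none was a member (median A of -0.06).

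Features on which the rule set no limit are given beside those of the other enriched genes, with no test. The HA-Tnrc6a inputs did enter E, A, DA and DU, so the input level is not free of the choice. RefSeq described 111 as protein-coding, 2 as lncRNA and 1 as a transcribed pseudogene, and 9 had no match. The protein-coding share was 90.2% of members, 87.9% of enriched non-members and 71.8% of all genes. Median gene length was 5764 bases for members, 4839 for enriched non-members and 3309 for all genes, and the median HA-Tnrc6a input level was 4.59, 3.83 and 3.63 CPM per kb. Of 114 members with RefSeq coordinates, 58 overlapped another gene, so their values are uncertain. At least 10 counts were present in every library for 112 members, and 3 members had a library at 0 counts.

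The same measure was then tested in libraries not used to pick the genes tested. The rule and its limits were drawn up over all 6 columns, with earlier results of these data known. These tests are therefore not independent of the rule. The rule, applied to the first column set alone, chose 155 genes, of which 98 were members. The second column set was then fitted on its own with edgeR's quasi-likelihood test (two-sided, Benjamini-Hochberg adjustment over all genes tested). Recovery was lower in Ago2-/- than in HA-Tnrc6a cells at an adjusted p under 0.05 for 128 of the 155, or 82.6%, where 9.64% of the 19810 genes tested were lower. Only Filip1l (1.20 ± 0.41 SE, adjusted p = 0.0441) and Hoxa3 (1.74 ± 0.50 SE, adjusted p = 0.0164) were higher, and neither is a member. The median difference was -0.69 for the chosen genes, -0.09 for the 1421 enriched genes not chosen, of which 27.1% were lower, and -0.03 for all genes.

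With the column sets exchanged, 112 genes were chosen in the second set and 72, or 64.3%, were lower in the first. None was higher by edgeR or DESeq2, and 0 at an unadjusted p under 0.05 by edgeR. Of the 18707 genes tested there, 5.29% were lower, and of the 1078 enriched genes not chosen 16.1%. The median difference was -0.65 for the chosen genes and -0.05 for all genes. The rule chose 50 genes in both sets, which are members by construction, since means over 6 columns are the averages of those over 3. The members Gm10337 and Pex11a were chosen in neither set alone. Both column sets carry the same genotype names, and the labels do not state which clones were used in either. These tests thus speak of repeated libraries and cannot speak of other clones.

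The fitted differences of single members are given for both sets with their standard errors (3 libraries a group), second set first. These members were named by A over all columns or after their values were seen, which includes the libraries fitted, so no p is given for them. Tmem50b had -1.60 ± 0.10 in the second set and -1.80 ± 0.13 in the first, Eri1 -1.43 ± 0.09 and -1.497 ± 0.117, and Nanos1 -1.28 ± 0.12 and -1.42 ± 0.21. These 3 genes had differences of like size in both sets. Ago2 itself had -1.54 ± 0.07 and -1.17 ± 0.11, and Nt5dc2 -0.96 ± 0.09 and -1.67 ± 0.12. Mdm4 had -1.24 ± 0.08 and -1.16 ± 0.13, Klhl28 -1.25 ± 0.11 and -1.37 ± 0.16, and Dcp2 -0.96 ± 0.08 and -0.78 ± 0.15. Vamp3, Ubap1, Mknk2, Arhgef7, Xylb, Cdca7 and Mxi1 had differences from -0.83 to -1.35 in both. Tpbgl had a wide error, with -1.80 ± 0.58 and -0.66 ± 0.99. Foxf2, chosen in the first set, had a fitted difference of 0.51 ± 0.88 in the second, opposite in sign to its A and smaller than its error. The edgeR test of the difference between the column sets called 0.195% of all genes and none of the members, of which 10 had an unadjusted p under 0.05. The smallest adjusted p was that of Nt5dc2 (0.0565).

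**Figure D4:**
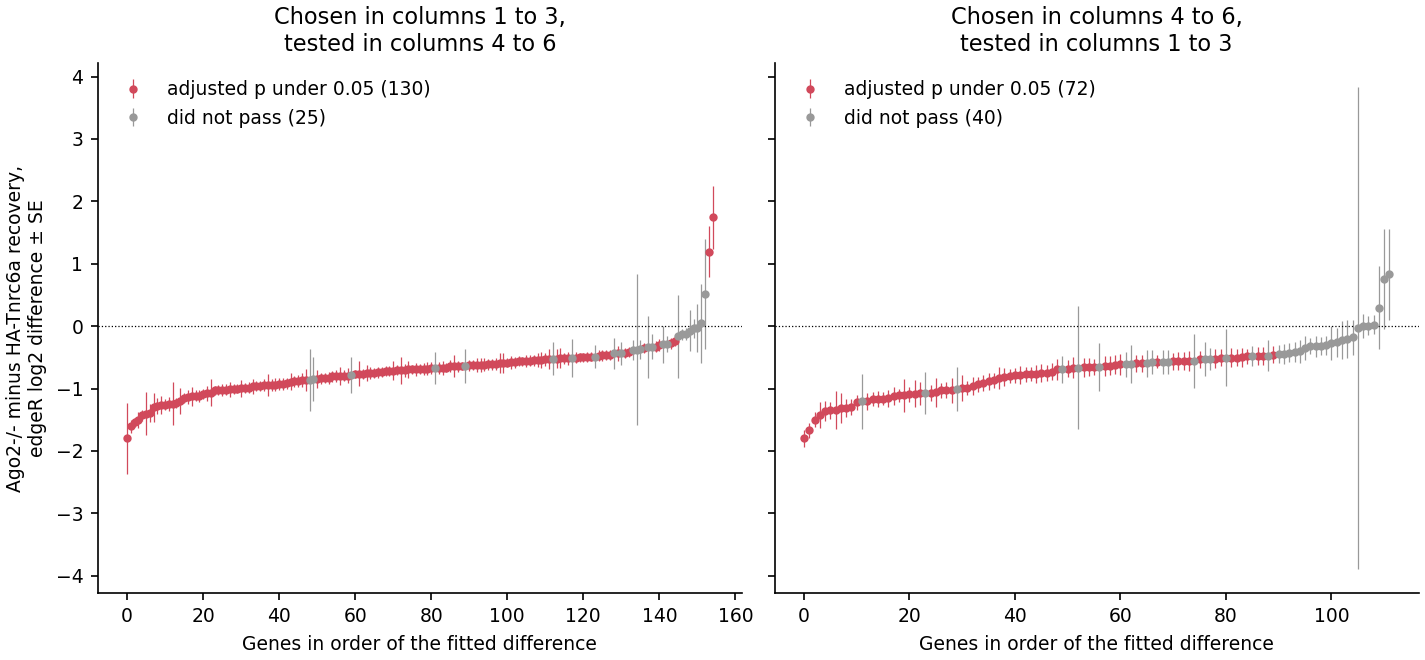
Fitted log2 differences in recovery between Ago2-/- and HA-Tnrc6a cells with their standard errors, for 155 genes chosen in columns 1 to 3 and tested in columns 4 to 6 (left) and 112 genes chosen in columns 4 to 6 and tested in columns 1 to 3 (right). Red points passed at an adjusted p under 0.05, of which 128 on the left and 72 on the right lie below 0.

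Recovery of the members without Upf1 was compared next. The Upf1-/- IPs did not enter the rule, but the HA-Tnrc6a libraries and the Upf1-/- inputs did, so this comparison shares data with the choice of members. It also shares the HA-Tnrc6a libraries with the Ago2-/- comparison. With edgeR's test over both column sets, 10 of the 123 members, or 8.13%, passed at an adjusted p under 0.05, 2 lower and 8 higher, where 4.49% of the 19966 genes tested passed, 1.57% lower and 2.92% higher. The median difference was 0.05 over the members and 0.02 over all genes. With library totals in place of TMM scaling, 13 members were lower and 7 higher, beside 778 lower and 224 higher of all genes. With RLE size factors the counts were 2 and 7 of the members and 315 and 352 of all genes, so the balance of directions depends on the scaling in the whole table and not in the members alone. Without Upf1-/- IP column 4, 9 members were lower and 7 higher with a median of -0.04, beside 606 and 326 of all genes with the same median. Columns 1 to 3 alone gave 2 lower and 1 higher, beside 145 and 17 of all genes. The edgeR test of the difference between the column sets called none of the members (14 at an unadjusted p under 0.05) and 0.115% of all genes.

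Tmx4, a thioredoxin-related protein of the endoplasmic reticulum membrane, was lower in both knockouts. Its IP level was 23.1, 26.1 and 28.5 CPM in HA-Tnrc6a cells, 16.4, 18.4 and 21.4 CPM in Upf1-/- cells and 15.5, 21.0 and 23.3 CPM in Ago2-/- cells. Its inputs were 9.16 to 13.0, 12.9 to 15.6 and 11.7 to 16.4 CPM. The Upf1-/- recovery difference was -0.79 ± 0.10 (SE, 6 libraries a group, edgeR adjusted p = 6.75e-06), beside an A of -0.70. Dcp2 was lower by -0.36 ± 0.09 (edgeR adjusted p = 0.0189). Its Upf1-/- inputs were higher (167 to 248 CPM against 110 to 184 CPM), while its IPs overlapped (602 to 753 CPM against 456 to 839 CPM), and IPs compared without inputs gave 0.07.

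Mdm4 was lower without Ago2 and higher without Upf1. Its Upf1-/- IPs were at 2073, 2124 and 2384 CPM against 1097, 1345 and 1733 CPM in HA-Tnrc6a cells, and its inputs overlapped at 464 to 532 and 366 to 524 CPM. The difference was 0.60 ± 0.08 (edgeR adjusted p = 1.51e-05). Its pseudogene Mdm4-ps had 0.55 ± 0.14 (edgeR adjusted p = 0.0127), on reads that may be shared.

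Wiz had Upf1-/- IPs of 698, 735 and 860 CPM, all above the 513 to 621 CPM of HA-Tnrc6a cells, from nearly equal inputs (66.7 to 78.2 and 66.2 to 75.8 CPM). Its difference was 0.52 ± 0.08 (edgeR adjusted p = 0.000117). Nt5dc2 had 0.54 ± 0.08 (edgeR adjusted p = 3.76e-05) with lower Upf1-/- inputs, and its IPs compared without inputs gave -0.14. Epn1, an endocytic adaptor, had 0.46 ± 0.08 (edgeR adjusted p = 0.000457), with Upf1-/- IPs of 364 to 491 CPM against 246 to 386 CPM. The others that passed were Pde6d, which carries prenylated proteins (0.38), Bri3bp (0.34) and Nacc1 (0.26). The call for Nacc1 was lost when each of 17 of the 24 libraries was left out in turn, that for Mdm4-ps with 4 of them and that for Bri3bp with 3.

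**Figure D5:**
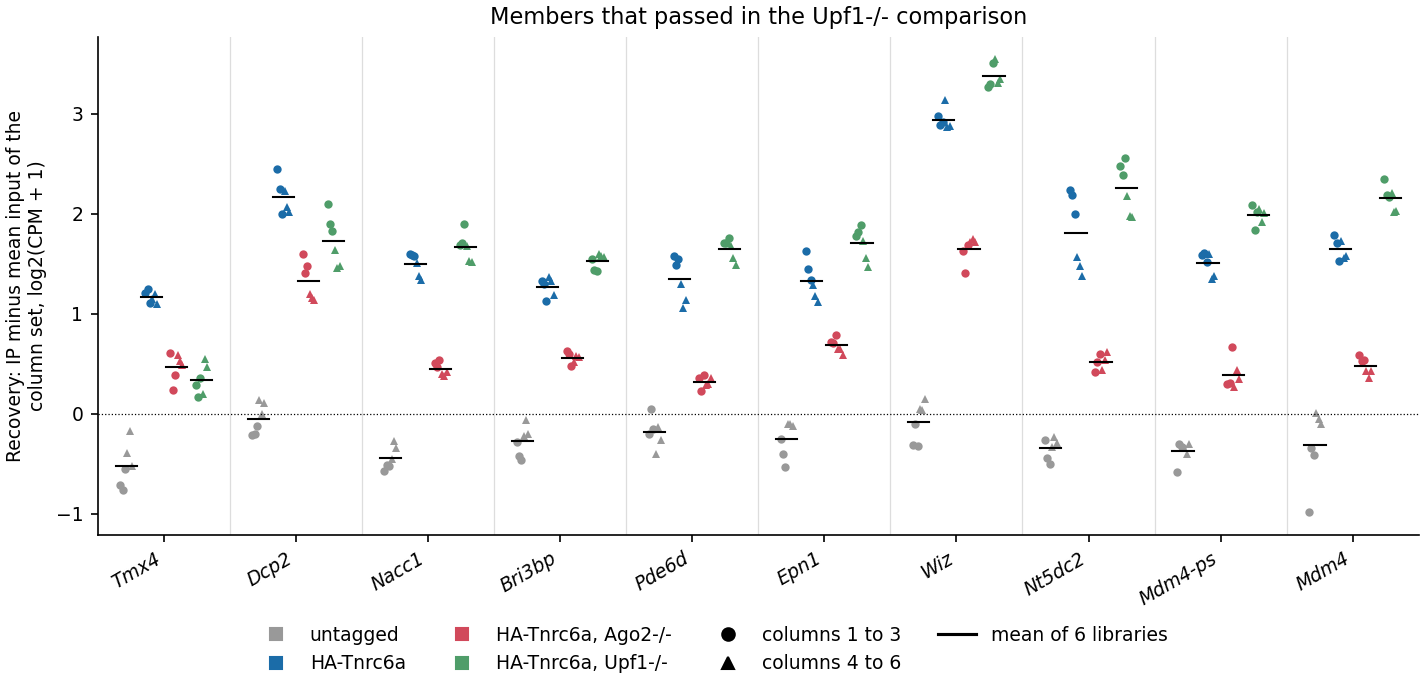
Recovery of the 10 members that passed in the Upf1-/- comparison, as log2(CPM + 1) in each IP less the mean input of its column set, by genotype, with circles for columns 1 to 3, triangles for columns 4 to 6 and a bar at the mean of 6 libraries. Tmx4 has its Upf1-/- libraries (green) at 0.17 to 0.55, below the HA-Tnrc6a libraries (blue) at 1.10 to 1.25, and Mdm4 has them at 2.02 to 2.34, above 1.53 to 1.78.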

How the data were processed

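RNA from inputs and HA immunoprecipitates was measured in 48 libraries. The authors deposited 1 table of raw read counts per gene and library, per the file headers. The submitters' processing notes name STAR 2.7.3a, bcl2fastq 2.20, GRCm38 and mm10, with no role given, and the counting tool, annotation and strand setting are not given in the sources used here. A further 48 columns of per-library values were not used. The gene length column of the deposited table, in bases, served for levels per kb. Each gene reached at least 11 counts in some library.

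The members and the gene lists were chosen with earlier results of these data known, and role classes were assigned after the members were known. The rule used log2(CPM + 1) with library totals. Tests used edgeR 4.0.16 (limma 3.58.1, R 4.3.3) with TMM scaling, filterByExpr at a minimum count of 10, which all members and all genes chosen in either column set passed, robust quasi-likelihood fits and Benjamini-Hochberg adjustment over all genes tested. The Upf1-/- contrast was averaged over the column sets with equal weight. The fits were tested on simulated data with the same dispersion for every gene and no deviating library. That simulation does not cover the spread between the real libraries. Alternatives were other scalings (library totals, RLE), pseudocounts, thresholds, no filter, DESeq2 1.42.0, a replicate block, 1 fit of all genotypes, IPs without inputs, single column sets and leaving out each library.

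Named genes are Tnrc6a, Ago2 and Upf1, the 12 members with the lowest A, 3 genes on each side of the limit on A, members in a gene list, up to 5 per direction in the Upf1-/- comparison, up to 6 chosen in both column sets, and members with the highest or lowest E, DA, DU or input level. Others were named after their values were seen. Nothing in the labels says that replicates came from separate cultures beyond triplicate dishes, so p-values measure the spread between these libraries, which may be technical. Counting intervals are not given, because reads without molecular identifiers need not be independent. RefSeq (GRCm38.p6) gave coordinates for 114 members, and 9 member symbols came from the reference table.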

Additional observations from a re-analysis of the deposited data

Results flagged for a closer look

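Groups of 6 values were examined, 104 in all: library totals, and log2(CPM + 1) of the 12 members with the lowest A. In 7 of them a library's gap to its nearest neighbour, as a share of the group's range, was above Dixon's critical value. Chance flags about 1 in 20 such groups. Column 6 of the Ago2-/- IPs had a total of 73845953 counts, the highest of its group. Column 1 of the untagged IPs was the lowest of its group for Eri1 (48.1 CPM), Bcl2l11 (29.0 CPM), Nanos1 (4.64 CPM) and Mdm4 (259 CPM). Column 1 of the untagged inputs was the lowest for Cdk19 (6.93 CPM), and column 2 of the HA-Tnrc6a inputs the highest for Nanos1 (9.48 CPM). Whole libraries were also compared in pairs within a group and column set, by chi-square per degree of freedom (1.93 to 34.0, median 6.57). HA-Tnrc6a input column 3 had 32.0 and 27.0 against columns 1 and 2, which had 2.59 against each other. Upf1-/- IP column 4 had 24.9 and 34.0 against columns 5 and 6, which had 4.52 against each other.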

How the results depend on the processing

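The number of members fell to 58 with a limit on A of -0.8 and to 70 with a minimum E of 2. Other scalings, pseudocounts and single column sets gave 109 to 155, and leaving out each library gave 110 to 147. The genes lower in the column set not used for their choice numbered 123 to 129 and 71 to 82 under the alternatives, and 120 to 132 and 63 to 84 without each library. Members that passed in the Upf1-/- comparison numbered 20 with library totals (16.3%, beside 5.02% of all genes), 50 for IPs without inputs (20 lower, 30 higher, in all 40.7%, beside 46.8% of all genes), 3 in columns 1 to 3 alone (2.44%, beside 0.866% of all genes) and 7 to 16 when each library was left out, the 16 being without Upf1-/- IP column 4. Their median ran from -0.0413 to 0.0625 without each library and was -0.10 in columns 1 to 3 alone and 0.16 in columns 4 to 6 alone. IPs without inputs turned the sign of Nacc1 (-0.0256), Dcp2 (0.0687) and Nt5dc2 (-0.14), and A of Tpbgl ran from -1.53 to -1.02. With the column number as a replicate block, 14 members passed (5 lower, 9 higher), and 128 and 75 genes were lower in the tests across column sets. Same-numbered inputs and IPs of a genotype deviated together only weakly on average (mean r of 0.09, -0.06 to 0.49). This cannot show that they were unpaired, and the main fits left any pairing out. The cause of these shifts was not tested. Depth limits the lowest members, of which 3 had a library at 0 counts, and the 58 that overlap another gene depend on the authors' counting.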
